A study of Saccharomyces cerevisiae with 144 samples.

Results

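The phosphate regulon genes described here are 8 of the 6465 genes counted in each library: PHO84 (YML123C), PHO89 (YBR296C), SPL2 (YHR136C), PHO5 (YBR093C), PHO11 (YAR071W), PHO8 (YDR481C), VTC1 (YER072W) and VTC3 (YPL019C). They were taken by their systematic names, by a rule that used no measured value. The phosphate (PHO) regulon of budding yeast is the set of genes that the transcription factor Pho4, with the homeodomain protein Pho2, turns on when phosphate runs short. In phosphate-rich medium the cyclin-CDK complex Pho80-Pho85 phosphorylates Pho4 and keeps it out of the nucleus, and the CDK inhibitor Pho81 relieves this during starvation. Pho84 and Pho89 are high-affinity phosphate transporters, Spl2 inhibits low-affinity phosphate transport, Pho5 and Pho11 are secreted acid phosphatases, Pho8 is the vacuolar alkaline phosphatase, and Vtc1 and Vtc3 are subunits of the vacuolar complex that makes polyphosphate.

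The data were SLAM-seq counts of Saccharomyces cerevisiae, in which 4-thiouracil marks RNA made during a 4 min pulse and reads with at least 2 T>C conversions (T>C reads) stand for that new RNA. There were 23 strains, each treated for 25 min with DMSO or with indoleacetic acid (IAA), with 6 replicates of WT (A to F) and 3 of every other strain (A to C) in each treatment, described by the study as biological replicates. All strains were grown in rich medium (YPD, which is not a phosphate starvation medium) and carried the auxin receptor OsTIR1 under the GPD1 promoter and 3xV5-mAID degron tags on BDF1 and BDF2, the genes of the 2 yeast BET proteins, so that IAA depletes endogenous Bdf1 and Bdf2 (Bdf1/2). Bdf1/2-AID had no further BDF1 copy, WT had an unmodified further copy at TRP1, and 21 strains had a variant copy there. The variants named below lacked (Δ) or carried mutations in (m) the extra-terminal domain (ET), the bromodomains (BD1 and BD2) or the phosphorylation sites near the N terminus (NPS) and the C terminus (CPS). In mET(1), mET(2) and mET(4) the number counts the conserved acidic ET residues changed to alanine. ΔB, ΔBID and ΔB/BID lacked motif B and/or the basic interaction domain, ΔIDRs lacked stretches of the disordered regions, and pNPS/CPS was the phosphomimetic variant.

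Libraries held 4089393 to 21384793 reads, of which 0.739% to 5.60% were T>C reads. Levels are given as T>C reads per 10000000 reads of the library (per 10 M), so they are relative to the library total and do not give RNA per cell. BDF1 had 1062 ± 90.4 reads of any kind per 10 M (SD, n = 3) in Bdf1/2-AID in DMSO and 1706 to 4082 in the mean of the 22 strains with a further copy. The share of T>C reads in the library was 3.05% ± 0.156 in DMSO and 1.52% ± 0.030 in IAA in Bdf1/2-AID (SD, n = 3), and 3.85% ± 0.383 and 3.06% ± 0.224 in WT (SD, n = 6).

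Pho4 binds the sequence CACGTG, and with lower affinity CACGTT, so the 600 bases before each start codon were searched on both strands. All 8 promoters held CACGTG, with 13 sites in all, against 7.22% of all 6011 promoters of this length. SPL2 had 4 sites, PHO84 and VTC3 had 2 each, and 0.865% of all promoters held 2 or more. CACGTT was found in 6 of the 8 promoters, not in those of SPL2 and VTC1, against 18.7% of all promoters. The genes were taken as phosphate regulon genes, the set that Pho4 turns on. Pho4 sites in their promoters therefore go with that choice and are no separate result. The sites are shown because they are the sequence feature that the 8 genes share. Each line gives 30 bases of the R64 assembly (RefSeq) on the strand of the gene, 5′ to 3′, with CACGTG in capitals.
PHO84, chrXIII:26219-26248, minus strand: atttaatagttcCACGTGgacgtgttattt
PHO84, chrXIII:26197-26226, minus strand: tgttatttccagCACGTGgggcggaaatta
PHO89, chrII:798828-798857, minus strand: atgacaatgcagCACGTGggagacaaatag
SPL2, chrVIII:375444-375473, minus strand: agtatttttgctCACGTGaccgacaagggt
SPL2, chrVIII:375230-375259, minus strand: aaatgatgtacgCACGTGggcgaaagttca
SPL2, chrVIII:375173-375202, minus strand: tctctcttttccCACGTGctccgctctctt
SPL2, chrVIII:375114-375143, minus strand: agtcactgcagcCACGTGcctagatctatt
PHO5, chrII:431187-431216, minus strand: ccttggcactcaCACGTGggactagcacag
PHO11, chrI:225165-225194, plus strand: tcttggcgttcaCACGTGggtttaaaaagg
PHO8, chrIV:1420767-1420796, minus strand: tctacgtcgggcCACGTGcagcgatcactt
VTC1, chrV:302637-302666, plus strand: aatagatattagCACGTGtctcggagagaa
VTC3, chrXVI:517346-517375, minus strand: tgtgcgagggccCACGTGgcttaatacaac
VTC3, chrXVI:517312-517341, minus strand: tgcagtcgcaagCACGTGcatgcgattttg
A match of these letters is a description and does not show that Pho4 was bound in these cells.

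Of the 8 genes, 5 passed the filter of a mean of at least 5 T>C reads per library and were tested among 5014 genes. Their mean T>C reads per library were 278.5 for PHO84, 173 for VTC1, 92.1 for SPL2, 84.1 for VTC3 and 13.6 for PHO8. PHO5 averaged 3.74 T>C reads and had 0 in 18 libraries, PHO11 averaged 2.32 with 0 in 37, and PHO89 averaged 1.33 with 0 in 67. The counted regions ran from the start codon to 250 bases past the annotated end of each gene, namely chrXIII:23787-25800 for PHO84, chrII:796548-798522 for PHO89, chrVIII:374404-375100 for SPL2, chrII:429298-430951 for PHO5, chrI:225460-227113 for PHO11, chrIV:1418300-1420250 for PHO8, chrV:302806-303445 for VTC1 and chrXVI:514261-517018 for VTC3. PHO11 reads can be divided with PHO12, a second acid phosphatase gene whose region is 96.5% identical. PHO8 overlaps DIG2 on the opposite strand and CWC21 on the same strand, PHO89 overlaps PCA1 on the opposite strand, and all 2014 bases of the PHO84 region lie under a noncoding gene on the opposite strand that had 29.9 reads per library on average against 2495 for PHO84. Whether the counting used strand is not given in the sources used here, so these genes carry that uncertainty.

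The 6 WT replicates fell into 2 sets that the labels do not name, A to C and D to F, and these sets differed in several of the genes described here. All reads of VTC1, new and old RNA together, were 2908, 2293 and 2034 per 10 M in WT A to C in DMSO and 7177, 7320 and 7652 in D to F. All reads of SPL2 ran the other way, with 2099, 2411 and 2338 in A to C and 1351, 1448 and 1350 in D to F. The sets did not overlap for either gene, nor for any other of the 8 but PHO89. The share of all genes without overlap is not given here, for all reads or for T>C reads. Over all genes the median log2 ratio of A to C over D to F was -0.55 in all reads. PHO8 (-0.36, with 60.3% of genes below it) and VTC3 (-0.91, with 30.4% below it) were nearer to it than VTC1 or SPL2. In T>C reads, SPL2 had 239 ± 6.43 in A to C and 117 ± 10.7 in D to F, and VTC1 had 117 ± 34.5 and 240 ± 49.8 (SD, n = 3 each). PHO84 had 281.9 ± 68.7 and 462 ± 68.2. The sets did not overlap in T>C reads of these 3 genes, while those of VTC3 (126 ± 30.2 and 136 ± 15.6), PHO5, PHO8, PHO11 and PHO89 overlapped. The log2 ratio of A to C over D to F in all reads was 0.72 for SPL2, a value that 7.78% of 5014 genes exceeded, and -1.61 for VTC1, with 8.02% of genes below it, around a median of -0.55 over all genes.

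The libraries of mET(4) and mBD1/2, whose library numbers adjoin those of WT A to C, shared the pattern of WT A to C, which makes 18 libraries in all. They were set apart by these levels and not by a break in the numbers, since WT D to F, pNPS/CPS, mNPS, mCPS and ΔB lie in the same unbroken run of 48 library numbers without the pattern. In DMSO their all-read levels of VTC1 ran from 1721 to 3517 (9 libraries), below the 5065 to 10830 of the other 63, and in IAA from 1621 to 2226, below 4260 to 7861. The ratio of VTC1 to SPL2 reads, which needs no scaling between libraries, was 0.743 to 1.86 in the 18 libraries and 3.27 to 13.0 in the other 126, without overlap. In T>C reads this ratio was 0.301 to 0.765 in the 18 and 0.735 to 7.80 in the 126, so the ranges overlapped slightly. This grouping was noticed in these levels and was not tested. WT has the same strain label in both sets.

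**Figure D1:**
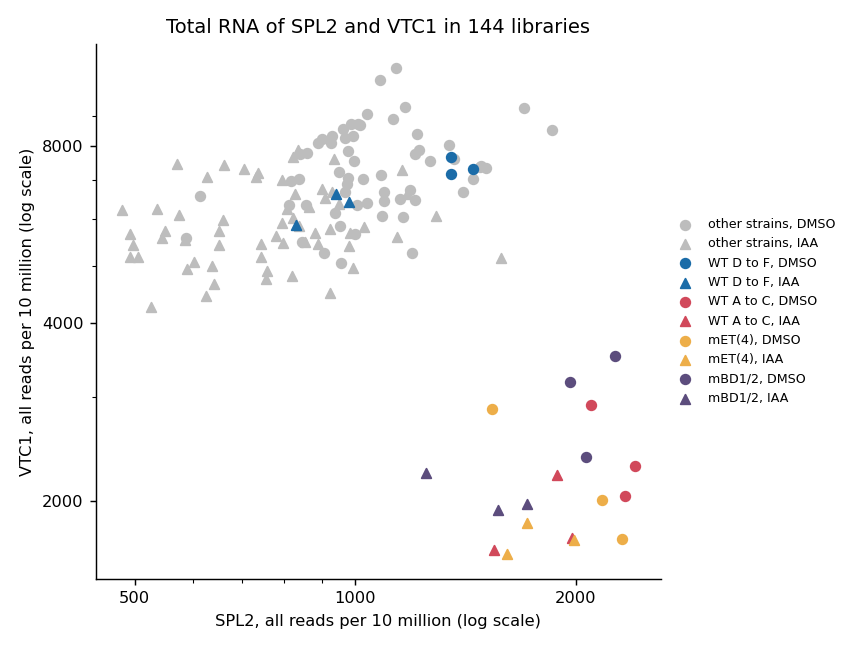
All reads of SPL2 (x axis) against all reads of VTC1 (y axis) per 10 M reads in each library, both on log axes, with circles for DMSO and triangles for IAA. WT A to C, mET(4) and mBD1/2 (18 libraries, VTC1 at 1621 to 3517) sit apart from WT D to F and all other strains (VTC1 at 4260 to 10830).

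In Bdf1/2-AID, where IAA depletes Bdf1/2 and no further copy remains, new RNA of PHO84, SPL2, VTC1 and PHO8 fell relative to the library total, by less than that of most genes, and the direction turned for these genes when libraries were scaled by size factors. PHO84, the main phosphate importer in starved cells, had 335.2, 331.6 and 290.2 T>C reads per 10 M in Bdf1/2-AID in DMSO and 204.4, 204.9 and 285.8 in IAA. Each IAA library was below all 3 DMSO libraries, with the highest IAA value (285.8) close to the lowest DMSO value (290.2). The log2 change was -0.46 ± 0.15 (SE, n = 3 each, adjusted p = 0.00251 in edgeR), and 90.2% of genes had a lower value. SPL2 had 102, 92.9 and 78.8 in DMSO and 42.8, 50.6 and 51.0 in IAA, with no overlap, and a log2 change of -0.92 ± 0.22 (adjusted p = 4.62e-05). VTC1 had 268.4, 161 and 159 in DMSO and 99.8, 84.3 and 109 in IAA, again with no overlap and 1 DMSO library well above the others. Its log2 change was -1.03 ± 0.17 (adjusted p = 1.41e-08). VTC3 had 89.8, 86.7 and 109 in DMSO and 61.8, 63.9 and 88.6 in IAA. These groups overlapped, and the log2 change of -0.39 ± 0.20 did not pass the threshold (adjusted p = 0.0635). PHO8 had 18.1, 17.7 and 11.7 in DMSO and 7.92, 9.76 and 6.65 in IAA, without overlap, and a log2 change of -0.98 ± 0.46 (adjusted p = 0.0408). That call was lost without any of 4 of the 6 libraries, where adjusted p reached 0.120.

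In this comparison 4 of the 5 tested genes were lower, and 84.3% of all 5014 genes were lower and 0.339% higher, so the members' count was near the background. The median log2 change was -0.92 over the 5 and -1.86 over all genes, and 78.6% to 91.6% of genes lay below each of the 5. The direction rested on the scaling. Scaling by size factors (DESeq2, from all reads) in place of library totals moved the median of all genes to -0.80, left 35.9% of genes lower and made 8.78% higher, and the 5 log2 changes were then 0.05 to 0.68. PHO84 (0.61, adjusted p = 0.000911) and VTC3 (0.68, adjusted p = 0.00535) were higher in IAA, and the other 3 were not past the threshold. The scaling shifts all genes by nearly the same amount. The place of the 5 genes above the median of all genes therefore could not turn with it, and is no separate result. The labelled share, which is T>C reads as a percentage of all reads of the gene and needs no scaling between libraries, went from 11.4% ± 0.218 to 9.0% ± 1.13 for PHO84, from 9.45% ± 1.39 to 7.39% ± 0.602 for SPL2 and from 2.57% ± 0.568 to 1.79% ± 0.224 for VTC1 (SD, n = 3). Over the whole library it went from 3.05% to 1.52%.

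**Figure D2:**
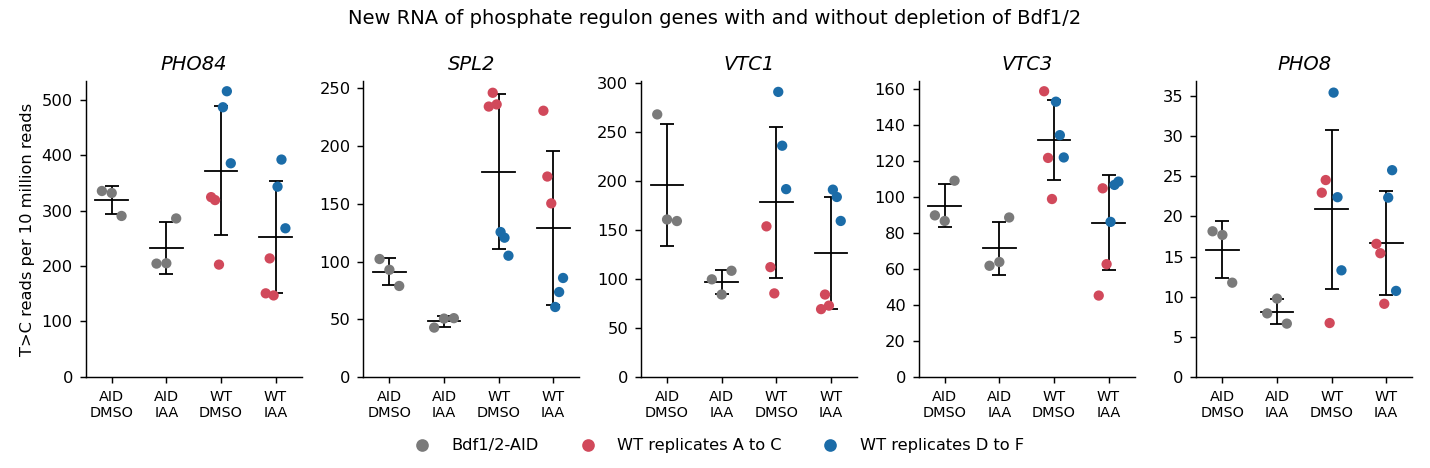
T>C reads per 10 M reads of 5 phosphate regulon genes (y axis) in Bdf1/2-AID (AID, n = 3) and WT (n = 6) in DMSO and IAA, with a point for each library, a long bar for the mean and whiskers for 1 SD. In Bdf1/2-AID the mean of SPL2 is 91.3 in DMSO and 48.1 in IAA and that of VTC1 196 and 97.5, and WT replicates A to C and D to F form separate groups for SPL2 and VTC1.

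All reads of the same genes, most of them made before the pulse, had smaller log2 changes. They were lower in IAA for SPL2 (log2 change -0.58, adjusted p = 3.33e-06), PHO8 (-0.46, adjusted p = 0.00332), VTC1 (-0.46, adjusted p = 3.52e-05) and VTC3 (-0.25, adjusted p = 0.0248), and PHO84 had -0.13 (adjusted p = 0.223). That is 4 of 5 where 79.1% of all genes were lower and 5.23% higher. With size factors all 5 turned positive, from 0.50 to 0.95, and passed the threshold, as did 34.4% of all genes upward and 29.4% downward. The acid phosphatase genes had few T>C reads, with 5, 1 and 0 for PHO5 in DMSO and 0, 1 and 0 in IAA, so their new RNA was followed only in a fit with a mean of at least 1 T>C read (5810 genes). In all reads of that fit PHO5 went from 119, 119 and 128 per 10 M to 80.8, 82.5 and 85.3, with no overlap and a log2 change of -0.55 (adjusted p = 0.00378). PHO11 went from 28.7, 67.2 and 33.6 to 26.9, 17.7 and 24.4, also without overlap (log2 change -0.98, adjusted p = 0.00675). PHO89, the sodium-coupled transporter, went from 61.1, 47.8 and 43.6 to 36.4, 45.2 and 48.7, with overlap (log2 change -0.23, adjusted p = 0.396). Its T>C reads were 2, 3 and 2 in DMSO and 0, 0 and 0 in IAA, at or under the floor of 3 counts per library in both groups, and no fold is given. In all reads of that fit 74.9% of genes were lower and the median log2 change was -1.09. It used library totals only, so the direction of PHO5, PHO11 and PHO89 with size factors is not given here.

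In WT, where an unmodified copy remains during depletion, none of the 5 genes passed the threshold on IAA. PHO84 in DMSO ranged over 203, 355 and 515 (lowest, median and highest of 6) and in IAA over 147, 241 and 391.9, and the groups overlapped for this and the other 4 genes. The log2 changes were -0.56 for PHO84 (adjusted p = 0.370), -0.46 for SPL2, -0.49 for VTC1, -0.62 for VTC3 (adjusted p = 0.343) and -0.33 for PHO8, against a median of -0.37 over all genes. No gene of the 5014 passed (0%), while an unadjusted p under 0.05 was reached by 713 lower and 3 higher genes, and DESeq2 also called 0. The spread between the sets entered this fit. With the 2 sets as a block, PHO84 (-0.59, adjusted p = 0.00759), SPL2 (-0.50, adjusted p = 0.0296), VTC1 (-0.52, adjusted p = 0.0278) and VTC3 (-0.62, adjusted p = 0.0196) were lower, together with 10.6% of all genes. With the replicate letter as a block the same 4 were lower, with adjusted p from 0.000115 to 0.00477, together with 22.9% of all genes. Within A to C and within D to F alone the 5 log2 changes were -0.81 to -0.38 and -0.66 to -0.27, and none passed.

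Without a block, the change on IAA did not differ detectably between Bdf1/2-AID and WT for any of the 5 genes, while 50.1% of all genes fell further in Bdf1/2-AID and 0.0997% less far. The difference in log2 change was 0.10 ± 0.44 for PHO84 (adjusted p = 0.861), 0.21 ± 0.38 for VTC3, -0.46 ± 0.51 for SPL2, -0.52 ± 0.51 for VTC1 and -0.64 ± 0.63 for PHO8 (SE), and the median over all genes was -1.45. Against WT D to F alone the standard errors were smaller and VTC1 passed (-0.60, adjusted p = 0.0317), with 62.5% of all genes. With the replicate letter as a block VTC1 also passed (-0.48 ± 0.22, adjusted p = 0.0449), with 63.8% of all genes lower. Size factors moved the median of all genes to -0.50 and turned SPL2, VTC1 and PHO8 positive (0.46, 0.47 and 0.32).

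**Figure D3:**
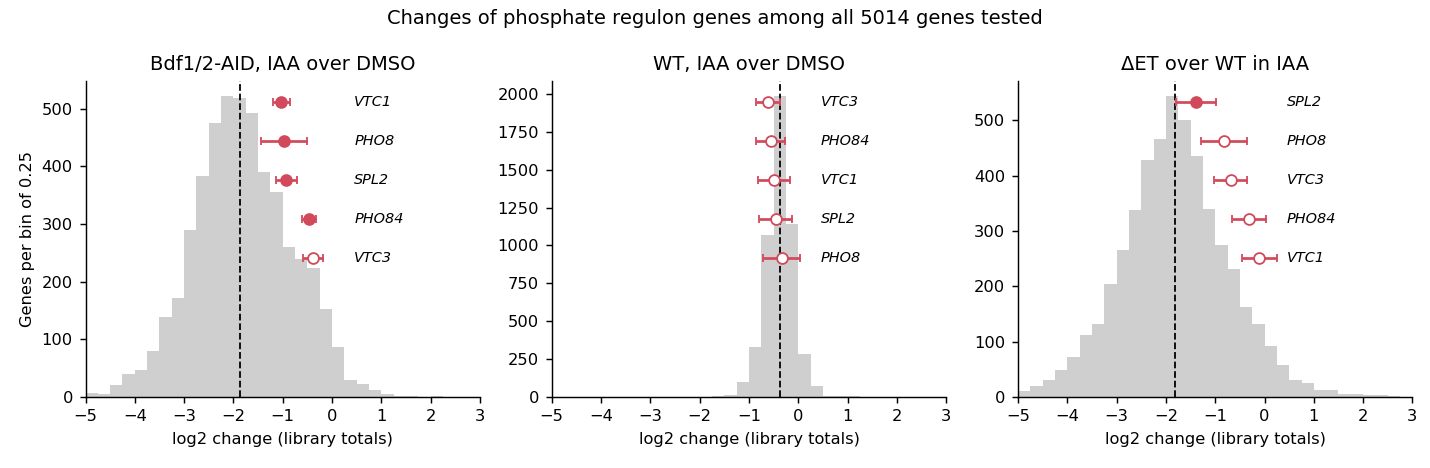
Histograms of the log2 change of T>C reads over 5014 genes (x axis, library totals; y axis, genes per bin) for Bdf1/2-AID on IAA, WT on IAA and ΔET over WT in IAA, with the median of all genes as a dashed line. Points with whiskers of 1 SE mark the 5 tested phosphate regulon genes (filled where adjusted p was under 0.05), which lie right of the median in the first and last panels, at -1.03 to -0.39 and -1.39 to -0.11.

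The variants were compared with WT after depletion, which asks what the further copy must carry to sustain transcription, and all these comparisons share the WT libraries. In ΔET the only gene of the 5 past the threshold was SPL2. It had 29.1, 45.5 and 73.0 in ΔET, and 60.6, 118 and 231 in WT (lowest, median and highest of 6). The highest ΔET library lay within the WT range. The log2 change was -1.39 ± 0.41 (adjusted p = 0.00368), against a median of -1.82 over all genes, and 78.6% of genes were lower and 1.06% higher. VTC1 had 99.0, 114 and 139 in ΔET, inside the WT range of 69.3 to 191, and a log2 change of -0.11 ± 0.35 (adjusted p = 0.785), with 93.9% of genes below it. PHO84 had 166, 187 and 253, also inside the WT range, and -0.32 ± 0.34 (adjusted p = 0.387). VTC3 (-0.69, adjusted p = 0.0570) and PHO8 (-0.82, adjusted p = 0.106) did not pass. These calls changed with the WT libraries used. Against WT D to F alone all 5 genes were lower (PHO84 -0.72, SPL2 -0.56, VTC1 -0.60, VTC3 -0.92, PHO8 -1.06), with 87.9% of all genes. Against WT A to C alone SPL2 was lower (-1.89) and VTC1 higher (0.63, adjusted p = 0.0276), where 64.8% of all genes fell and 3.71% rose. With size factors SPL2 lost its call (-0.57, adjusted p = 0.381) and VTC1 was higher (0.92, adjusted p = 0.0231), where 38% of genes were lower and 5.23% higher.

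In mET(4) none of the 5 genes passed against the 6 WT libraries, where 67% of all genes were lower and 0.997% higher. SPL2 had 135, 194 and 142 and a log2 change of 0.27 ± 0.36 (adjusted p = 0.480), and 96.4% of genes had a lower value. VTC1 had 69.7, 79.4 and 75.7, near the low end of WT, and -0.75 ± 0.36 (adjusted p = 0.0631). Against WT A to C alone, VTC1 had -0.02 ± 0.28, SPL2 -0.24 ± 0.23 and PHO84 0.34 ± 0.22, and none passed, while 49.2% of all genes were lower and 1.74% higher. Against WT D to F, SPL2 was higher (1.08, adjusted p = 9.11e-06) and VTC1 (-1.25, adjusted p = 1.51e-07), PHO8 (-1.34), VTC3 (-0.78) and PHO84 (-0.62) were lower, with 74.3% of genes lower and 2.71% higher.

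The bromodomain variants gave fewer calls over all genes. In ΔBD1/2, SPL2 had 48.0, 38.6 and 61.8 and a log2 change of -1.38 ± 0.41 (adjusted p = 0.0168), where 19.4% of all genes fell and 3.81% rose. That call was lost with size factors (-1.17, adjusted p = 0.163), against WT D to F alone (-0.57, adjusted p = 0.0909) and without any 1 of the 3 ΔBD1/2 libraries, where adjusted p reached 0.108. Against WT D to F alone PHO84 (-0.57, adjusted p = 0.00585) and VTC3 (-0.87, adjusted p = 0.00576) were lower, with 35.2% of all genes. Against WT A to C alone SPL2 was lower (-1.89, with 23.2% of genes) and VTC1 higher (1.14, adjusted p = 0.000114), as were 9.79% of genes. In mBD1/2 none passed, where 0.439% of all genes were lower and 0.239% higher. Against WT D to F, SPL2 was higher (1.20) and VTC1 lower (-1.17) in mBD1/2, with 5.05% of genes higher and 31.7% lower, and against WT A to C their values were -0.12 and 0.07 and neither passed.

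The 3 genes with few T>C reads passed the threshold in some of these comparisons in the fit with the lower minimum. PHO5 had 0, 0 and 1 T>C reads in ΔET in IAA against 4, 2, 1, 4, 6 and 5 in WT (adjusted p = 0.00289), a ratio of 0.0532 per read of the library with an exact 95% interval from 0.00129 to 0.329 for counting error only. In mET(4) it had 1, 1 and 0 (adjusted p = 0.0360), a ratio of 0.158 with an interval from 0.0180 to 0.642. PHO11 had 2, 1, 0, 1, 5 and 4 in WT and 1 in the 3 ΔET libraries together (adjusted p = 0.0285), a ratio of 0.0901 with an interval from 0.00212 to 0.600, and 0, 0 and 0 in mET(4) (adjusted p = 0.0223), too few for a fold. PHO89 had 0, 0 and 0 in ΔET against 0, 0, 1, 2, 0 and 3 in WT, too few for a fold (adjusted p = 0.0467). In that fit 74% of genes were lower in ΔET and 59.8% in mET(4). The WT sets differed in these genes too. In IAA the mean WT level was 3.07 in A to C and 8.04 in D to F for PHO5. It was 1.35 and 5.38 for PHO11, and 0.38 and 2.40 for PHO89. The sets overlapped for PHO11 and PHO89 but not for PHO5. The calls of these genes against either WT set alone, or with size factors, are not given here.

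Across all strains against WT in IAA, 22 of 110 tests of the 5 genes passed, 19 lower and 3 higher, where 25.2% of all tests over 5014 genes were lower and 2.31% higher. All 5 genes were lower in ΔCPS, ΔNPS/CPS and mNPS/CPS, the 3 strains in which 79.7%, 82.9% and 84.5% of all genes were lower. SPL2 fell furthest there. It had 11, 10.4 and 19.7 in mNPS/CPS (log2 change -3.24), 23.6, 21.1 and 18.3 in ΔCPS (-2.62) and 19.6, 32.6 and 15.4 in ΔNPS/CPS (-2.52), each below all WT libraries. PHO84 had 67.2, 113 and 79.0 in mNPS/CPS (-1.54), also below all WT libraries. SPL2 was also lower in Bdf1/2-AID, ΔET, ΔBD1/2 and ΔBD2 (-1.76, adjusted p = 0.0117, where 8.68% of genes were lower). VTC1 was higher in mBD1, mBD2 and mET(2), with 509.1, 440.5 and 482.9 in mBD1 (log2 change 1.92), 457, 346 and 450 in mBD2 (1.72) and 361, 304 and 261 in mET(2) (1.29), all above the highest WT library at 191. In these strains 15.9%, 12.4% and 4.89% of genes were higher. They share 1 unbroken run of library numbers with ΔNPS and mET(1) and no other strain. In mBD1 in IAA the labelled share was 5.60% to 7.68% for VTC1 against 2.48% to 4.43% in WT, 16.1% to 20.6% for PHO84 against 8.34% to 14.5%, and 15.4% to 21.3% for SPL2 against 7.29% to 11.7%, so it was higher in mBD1 for all 3 genes. All reads of VTC1 were 6630 to 7861 per 10 M in mBD1 and 5879 to 6627 in WT D to F. The T>C share of the whole library in mBD1 is not given here, so the higher labelled share is not shown to be particular to these 3 genes. The part of the run, the labelled share and all reads in the VTC1 result was not tested. With size factors, where 15.9% of all tests were lower and 3.27% higher, the calls in ΔCPS, ΔNPS/CPS and mNPS/CPS and those of VTC1 in mBD1, mBD2 and mET(2) were kept, while SPL2 passed in no other strain and PHO84, VTC1 and VTC3 were higher in Bdf1/2-AID. The number of tests passed rose to 60 against WT A to C alone (26 lower and 34 higher, beside 26.2% and 12.1% of all tests) and to 50 against WT D to F alone (37 lower and 13 higher, beside 33.7% and 3.95%). VTC1 was higher in 15 strains against A to C and in 4 against D to F, and lower in 1 and in 8, so the count for this gene differed with the choice of WT libraries.

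**Figure D4:**
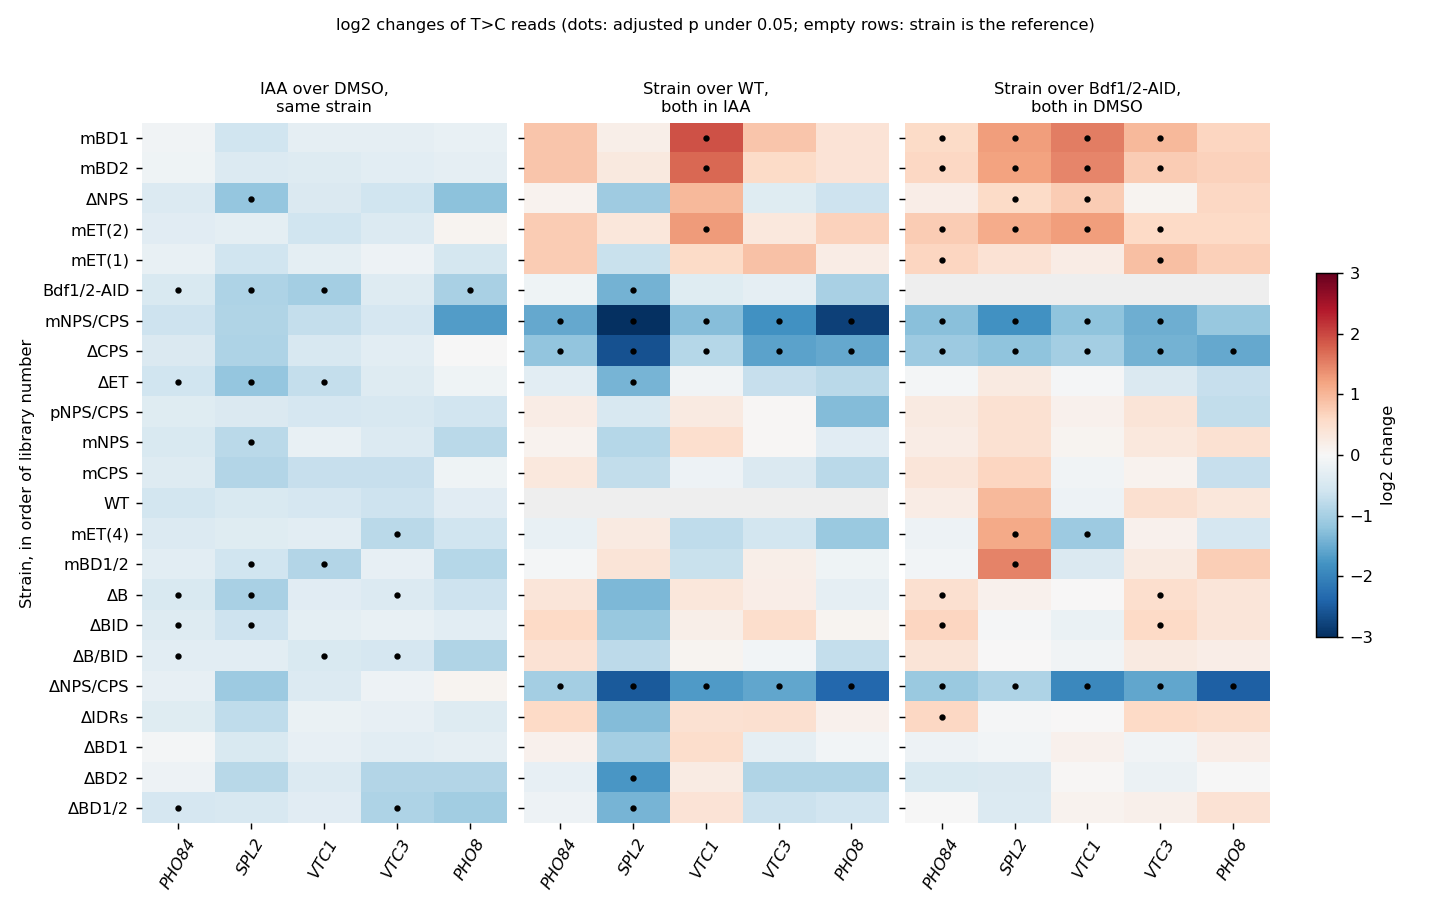
Log2 change of T>C reads of 5 phosphate regulon genes (columns) in each strain (rows, in order of library number) for IAA over DMSO, strain over WT in IAA and strain over Bdf1/2-AID in DMSO, with red for higher and blue for lower values and dots where adjusted p was under 0.05. mNPS/CPS, ΔCPS and ΔNPS/CPS are blue for all 5 genes in the last 2 panels, and VTC1 is darkest red in mBD1 and mBD2 (1.92 and 1.72 over WT in IAA).

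With endogenous Bdf1/2 present, strains were compared with Bdf1/2-AID in DMSO, whose 3 libraries all comparisons share. Of 110 tests 38 passed, 15 lower and 23 higher, where 11.5% of all tests were lower and 13.5% higher. The lower ones were again in ΔCPS, ΔNPS/CPS and mNPS/CPS, apart from VTC1 in mET(4) (-1.08, adjusted p = 0.00323) and with PHO8 not past the threshold in mNPS/CPS. In these 3 strains 76.3%, 68.5% and 62.9% of all genes were lower, and in mET(4) 12.5%. In ΔCPS PHO84 had 148, 147 and 153 against 335.2, 331.6 and 290.2, less than any Bdf1/2-AID library. PHO84, SPL2, VTC1 and VTC3 were all higher in mBD1, mBD2 and mET(2), where 46%, 41.6% and 37% of all genes were higher. VTC1 moved furthest of them, with 529, 626 and 573 in mBD1 (log2 change 1.54) and 523.5, 576.0 and 544.4 in mBD2 (1.47), above the 268.4, 161 and 159 of Bdf1/2-AID. These 3 strains lie in an unbroken run of library numbers that does not hold Bdf1/2-AID. Strain and run therefore cannot be told apart in this comparison. The strains named next as higher lie outside the run of Bdf1/2-AID too. PHO84 was also higher in ΔB, ΔBID, ΔIDRs and mET(1), and VTC3 in ΔB, ΔBID and mET(1), strains in which 13.5%, 28.4%, 10.6% and 33.5% of all genes were higher, in the order of the PHO84 list. SPL2 was higher in mBD1/2 (1.49, with 17.2% of genes higher) and in mET(4) (1.13, with 7.42% higher), the strains that shared the pattern of WT A to C, and in ΔNPS (0.57, with 30.9% higher), where VTC1 was higher too (0.77). With size factors PHO84 was higher in 3 strains in place of 7, and VTC3 in 2 in place of 6. None of the tested genes was then higher in ΔB, ΔBID, ΔIDRs, mET(1) or ΔNPS. SPL2 and VTC1 were lower in ΔBID, VTC1 also in ΔB/BID, PHO84 in ΔBD2 and PHO8 in mNPS/CPS. The calls of SPL2 in mBD1/2 and mET(4) were kept. The share of all tests that passed with size factors is not given here for this comparison.

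Within strains, IAA against DMSO gave 22 of 115 tests lower and 0 higher, where 15.7% of all tests were lower and 0.0572% higher. SPL2 was lower in 7 strains, PHO84 in 6, VTC1 and VTC3 in 4 each, and PHO8 in Bdf1/2-AID alone. The log2 change was below 0 in 23 of 23 strains for PHO84, SPL2, VTC1 and VTC3, and in 21 for PHO8. The median of all genes was also below 0 in Bdf1/2-AID (-1.86) and in WT (-0.37). The share of all genes below 0 is not given here. SPL2 in ΔET went from 75.3, 95.4 and 162 to 29.1, 45.5 and 73.0, without overlap (-1.16, adjusted p = 0.000692, with 68.3% of genes lower). In mET(4) only VTC3 passed, from 128, 96.6 and 83.3 to 65.0, 65.9 and 45.6 (-0.81, adjusted p = 0.0305, with 42.9% of genes lower). With size factors 3 of the 115 tests passed (beside 2.59% of all tests lower and 0.571% higher), SPL2 lower in ΔB and PHO84 and VTC3 higher in Bdf1/2-AID. The log2 change was then below 0 in 15 of 23 strains for PHO84, 20 for SPL2, 19 for VTC1 and for VTC3, and 16 for PHO8.

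In DMSO, the levels of each gene over the 23 strain means spanned a wide range. PHO84 ran from 134 in mNPS/CPS to 544.6 in mET(2), a 4.06-fold span, and VTC3 from 31.8 in ΔNPS/CPS to 184 in mBD1, a 5.78-fold span. SPL2 ran from 25.7 in mNPS/CPS to 259 in mBD1/2, 10.1-fold, VTC1 from 51.3 in ΔNPS/CPS to 576 in mBD1, 11.2-fold, and PHO8 from 2.85 in ΔNPS/CPS to 27.4 in mBD1/2, 9.61-fold. PHO5 ran from 1.28 in ΔET to 11.7 in ΔNPS, PHO11 from 0.401 in ΔET to 7.65 in mNPS, and PHO89 from 0 in ΔNPS to 6.33 in ΔIDRs. In IAA the range was 86.4 in mNPS/CPS to 449.7 in mBD1 for PHO84, 13.7 in mNPS/CPS to 171 in mBD1/2 for SPL2, 38.9 in ΔNPS/CPS to 477.5 in mBD1 for VTC1 and 24.2 in mNPS/CPS to 158 in mET(1) for VTC3. Most neighbours in these orders did not differ beyond their spread. Of 22 neighbouring pairs in DMSO, the means differed by more than the larger SD in 6 for VTC1, 3 for PHO84 and for SPL2, 2 for VTC3 and none for the other 4 genes. In IAA the counts were 4 for VTC1, 3 for SPL2, 2 each for PHO84 and VTC3, and none for the others. For VTC1 in DMSO these were mBD2 (547.96 ± 26.4) over mET(2) (470 ± 38.8), mET(2) over ΔNPS (336.6 ± 56.6), ΔNPS over mET(1) (230 ± 28.3), and 3 pairs at the low end. The 5 strains at the top of the VTC1 order fill 1 unbroken run of library numbers that holds no other strain, so strain and run cannot be told apart there.

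**Figure D5:**
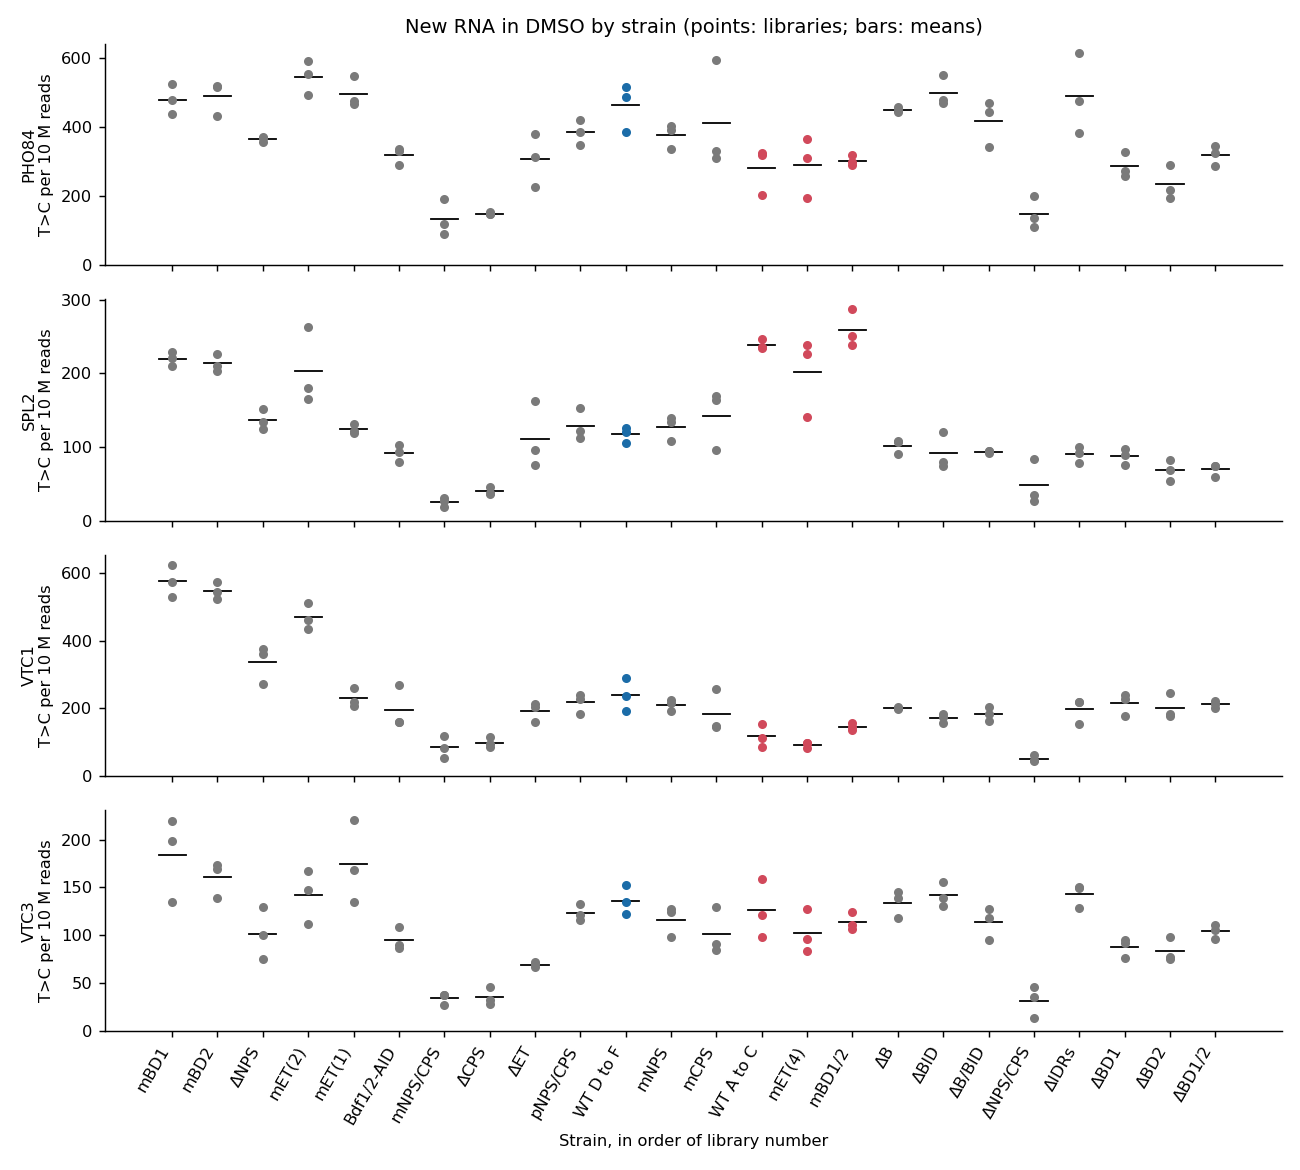
T>C reads per 10 M reads of PHO84, SPL2, VTC1 and VTC3 in DMSO (y axis) in each strain (x axis, in order of library number), with a point for each library and a bar for the mean, and WT divided into replicates A to C and D to F. VTC1 is highest at the left (mBD1 at 576), SPL2 is high in WT A to C, mET(4) and mBD1/2 (239, 202 and 259), and all 4 genes are low in mNPS/CPS, ΔCPS and ΔNPS/CPS.

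Among themselves the genes did not share 1 profile over the 23 DMSO strain means. Pearson's r of log2 level (plus 0.5) was 0.951 for PHO84 and VTC3, and 0.608 for SPL2 and VTC1. Of 5013 other genes, those most like PHO84 were DUN1, a DNA damage checkpoint kinase (0.952), VTC3, AMN1, a cell separation and mitotic exit regulator (0.951), RPS4B, a ribosomal protein gene (0.95), and PSY2, a protein phosphatase 4 subunit (0.947). PHO8 ranked 2100 (0.787), VTC1 2597 (0.758) and SPL2 3085 (0.724), and the median over all genes was 0.763. The strain means share their libraries and scaling, and the r of PHO84 with the strain sum of T>C levels was 0.881, so these values describe likeness over strains only. The means also include the strains that shared the pattern of WT A to C, in which VTC1 was low beside SPL2. The WT mean joins A to C with D to F, which differed in SPL2, VTC1 and PHO84. The strains at the top of the VTC1 order fill an unbroken run of library numbers. The part of these library groups in the r values was not tested.

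The wider phosphate pathway was followed in 25 further genes, of which 23 were tested. On IAA in Bdf1/2-AID, 2 of 5 regulators were lower, PHO2 (log2 change -1.64) and the CDK inhibitor gene PHO81 (-1.04), with a median of -1.09 over the 5. Of 5 genes for low-affinity transport and transporter traffic 4 were lower, among them PHO86 (-1.46), which helps Pho84 leave the endoplasmic reticulum, and PHO90 (-1.42), and the median was -0.70. All 3 inositol pyrophosphate genes were lower, DDP1 (-2.39), KCS1 (-1.72) and VIP1 (-0.96). Of 5 further polyphosphate genes 4 were lower, with PPN1 (-2.27) and PPX1 (-1.94), which break polyphosphate down, ahead of VTC2 (-1.11), and a median of -1.11. Of the 5 other genes tested 4 were lower, led by GDE1 (-2.77), PHO12 (-2.18) and PHO3 (-1.98), with a median of -1.98. In all, 17 of the 23 were lower beside 84.3% of all genes, and the median over all genes was -1.86. With size factors PPN1 and PHO3 were lower and PHO4 and PHO88 higher, so 2 of 23 each way beside 35.9% and 8.78% of all genes, and PHO88 had been lower with library totals. PHO4 and PHO88 were named after their values were seen. PHO81, PHO91 and VIP1 then turned positive (0.03, 0.38 and 0.12). In ΔET against WT in IAA, 15 of the 23 were lower beside 78.6% of all genes, among them PHO2 (-2.38), PHO80 (-2.10) and PHO85 (-1.74), the last 2 encoding the cyclin-CDK pair, PHO90 (-2.35), KCS1 (-1.63), PPX1 (-2.86) and PHM6 (-2.87). The list medians ran from -1.82 to -0.93 beside the -1.82 of all genes. With size factors 7 of the 23 stayed lower (PHO2, PHO90, PHO86, VTC2, PPX1, PHO3 and PHM6) beside 38% of all genes, and PHO80, PHO85 and KCS1 were among the 8 that lost their calls.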

How the data were processed

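The deposited files held counts of all reads and of T>C reads per gene, which the authors made by trimming with fastp (version 0.23.2) and bbduk and counting with SLAM-DUNK over each gene of the R64-3-1 annotation plus 250 bases past its end, without normalization. The genes and lists were chosen with earlier results of these data known. T>C counts were tested in edgeR (version 4.0.16, R 4.3.3, robust quasi-likelihood F-test) on the compared groups alone, with total reads of the library as library size, for genes with a mean of at least 5 T>C reads over all libraries (5014 of 6465), Benjamini-Hochberg adjustment over all genes tested and a threshold of 0.05. Changes are log2 values with SE. The fits were tested on simulated counts. Other settings were size factors (DESeq2 version 1.42.0), TMM factors, other filters (a mean of at least 1, or a T>C read in every library), DESeq2, a replicate block, 1 fit over all groups, WT subsets, a block of the WT sets and leaving out each library.

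The named genes were the 8 members, BDF1 as a check, at most 3 genes per pathway list and comparison past the threshold, by size of change, and the 5 genes most like PHO84. Replicate letters paired the WT libraries (r of deviations 0.212 to 0.499 over 6 pairs), but not within A to C or D to F (at most 0.0567), nor in any other strain with all pairs over 0.1. No label says what a letter shares. Promoters and regions came from the R64 assembly (RefSeq), where 6462 of 6465 identifiers matched a locus tag.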

Additional observations from a re-analysis of the deposited data

How the results depend on the processing

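Results moved with the library scaling, the WT libraries used, the replicate block and a fit over all groups. With size factors, 2 genes passed on IAA in Bdf1/2-AID in place of 4, 0 in ΔBD1/2 in place of 1 and 3 within strains in place of 22, and the PHO84 level in Bdf1/2-AID in IAA was 508 in place of 232. Signs then turned in Bdf1/2-AID on IAA for T>C reads of PHO84 (0.61), SPL2 (0.15), VTC1 (0.045), VTC3 (0.68), PHO8 (0.085), PHO81 (0.026), PHO91 (0.38) and VIP1 (0.12) and for all reads of PHO84 (0.95), SPL2 (0.50), VTC1 (0.61), VTC3 (0.83) and PHO8 (0.62). They turned in the difference between Bdf1/2-AID and WT for SPL2 (0.46), VTC1 (0.47) and PHO8 (0.32), in ΔET against WT for PHO84 (0.70), VTC1 (0.92), VTC3 (0.27), PHO8 (0.093) and PPN1 (0.032), in mET(4) for PHO84 (0.70), VTC1 (0.19) and VTC3 (0.35), in ΔBD1/2 for PHO84 (0.26), and in mBD1/2 for PHO84 (0.55) and PHO8 (0.41). TMM factors gave the same counts of 2, 0 and 3, a PHO84 level of 473, and turned T>C reads of PHO84 (0.50), SPL2 (0.040), VTC3 (0.57), PHO91 (0.27) and VIP1 (0.00694) and all reads of PHO84 (0.84), SPL2 (0.39), VTC1 (0.51), VTC3 (0.72) and PHO8 (0.51) in Bdf1/2-AID, SPL2 (0.36), VTC1 (0.36) and PHO8 (0.22) in the difference, PHO84 (0.61), VTC1 (0.83), VTC3 (0.19) and PHO8 (0.013) in ΔET, PHO84 (0.64), VTC1 (0.12) and VTC3 (0.28) in mET(4), PHO84 (0.22) in ΔBD1/2, and PHO84 (0.51) and PHO8 (0.37) in mBD1/2. The change comes from the scaling itself, which sets the zero of the log2 change.

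With WT A to C alone, 2 genes passed in ΔET and 2 in ΔBD1/2 (1 each with all 6) and 60 tests over the variants (22), and signs turned for PHO84 (0.24) and VTC1 (0.63) in ΔET, PHO84 (0.34) and SPL2 (-0.24) in mET(4), PHO84 (0.39) in ΔBD1/2, and PHO84 (0.50), SPL2 (-0.12), VTC1 (0.065) and PHO8 (0.13) in mBD1/2. With WT D to F alone, 1 passed in the difference between Bdf1/2-AID and WT (0), 5 in ΔET, 5 in mET(4), 2 in ΔBD1/2, 2 in mBD1/2 and 50 over the variants, and VTC1 (-0.082) in ΔBD1/2 and VTC3 (-0.066) in mBD1/2 turned. The WT sets as a block gave 4 calls in WT (0). The replicate block gave 4 in WT, 1 in the difference, 2 in ΔET, 2 in ΔBD1/2, 61 over the variants and 39 within strains, and turned PHO84 (0.24) and VTC1 (0.63) in ΔET, PHO84 (0.36) and SPL2 (-0.23) in mET(4), PHO84 (0.40) in ΔBD1/2, and PHO84 (0.48), SPL2 (-0.14), VTC1 (0.062) and PHO8 (0.11) in mBD1/2. Outside WT the letters did not pair libraries, and the blocked fits against WT use A to C alone. A mean of at least 1 T>C read gave 4 calls in ΔET and 2 in mET(4), since PHO5, PHO11 and PHO89 then entered. A fit over all groups gave 2 in Bdf1/2-AID, 2 for all reads (4), 2 in ΔET, 3 in mET(4), 2 in ΔBD1/2, 1 in mBD1/2, 47 over the variants and 9 within strains. Its cause was not tested.

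Leaving out 1 library at a time (90 fits, not run over all strains) gave 3 to 4 calls in Bdf1/2-AID, 0 in WT and in the difference, 1 to 2 in ΔET, 0 to 2 in mET(4), 0 to 1 in ΔBD1/2 and 0 in mBD1/2, a PHO84 level of 205 to 245 and a labelled share of 8.42% to 9.55%. The log2 changes that crossed 0 were those of PHO84 in the difference (-0.080 to 0.27), VTC1 in ΔET (-0.25 to 0.051), PHO84 (-0.28 to 0.0071) and VTC1 (-0.0026 to 0.64) in ΔBD1/2, and PHO8 (-0.51 to 0.053) and PHO84 (-0.20 to 0.16) in mBD1/2. PHO8 in Bdf1/2-AID also lost its call in DESeq2 (adjusted p = 0.118) and with the replicate block (0.0789). VTC3 passed there with that block (0.0428). With few T>C reads, depth limits what can be said of PHO5, PHO11, PHO89 and PHO8.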
